A study of Mus musculus with 2 samples.

Results

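The histone cluster genes of the mouse are the genes whose GENCODE M21 symbol starts with Hist1h, Hist2h, Hist3h or Hist4h, and they were followed here in the thymus of newborn mice. The rule found 70 genes. Of these, 67 had a row in both deposited gene tables, out of 43346 gene rows, and Hist2h2bb, Hist1h2bm and Hist1h2bh were not analysed here. The 67 comprise 6 H1, 20 H2A, 16 H2B, 12 H3 and 13 H4 genes, of which 64 are annotated as protein-coding and 3 as pseudogenes. Total RNA came from both thymus lobes of 2 pups (strain B6NCrl, postnatal day 0) of 1 pregnant female, with 1 library per pup and 10 ng of RNA above 200 nt in each. The labels give no genotype change, no treatment and no second tissue, and the sex of the pups was not collected, so there is 1 group of 2 replicates and no comparison between groups. Each pup is 1 library of a whole organ, so a difference between pups cannot be told apart from a difference between libraries.

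The core histones H2A, H2B, H3 and H4 form the protein spool of the nucleosome, and the linker histone H1 binds where DNA enters and leaves it. Cells need new histone protein when they copy their DNA, and the clustered genes are the replication-dependent supply, transcribed mainly in S phase. Their messenger RNAs are unusual in that most have no poly(A) tail and end instead in a short stem-loop that the stem-loop-binding protein Slbp recognises. Replication-independent histones such as H3f3a, H3f3b (H3 variant genes) and H2afz (an H2A variant gene) lie outside the clusters and carry ordinary poly(A) tails. The newborn thymus holds many dividing thymocytes, the precursors of T cells.

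The sequences below identify the genes the results turn on. The stem-loop was found in the M21 transcript models of 46 of the 70 genes. Models of 11 genes hold coding sequence only, and 0 of these contained it. A stem-loop absent from a model may still be in the gene. The form seen in Hist1h2ap was shared by 26 genes of types H1, H2A, H2B and H3. Another 7 genes, all of type H4, shared that of Hist1h4d. The 2 are shown because they belong to the highest H2A and the highest H4 gene. Capitals mark the stem-loop, and the 5 bases before it are in lower case.
Hist1h2ap, chr13:21833029-21833049, minus strand, GRCm38: aaaaaGGCTCTTTTCAGAGCC
Hist1h4d, chr13:23581945-23581965, plus strand, GRCm38: ccaaaGGCCCTTTTCAGGGCC

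All 13 H4 genes encode the same protein of 103 residues (initiator methionine included), yet their coding sequences differ at silent positions. The coding sequence of Hist1h4d differed from those of the other H4 genes at 18 to 40 of 312 bases (87.2% to 94.2% identity). None of its 100-nt coding windows occurred in another gene's M21 transcripts. The first 90 coding bases of Hist1h4d and of 3 other H4 genes show how the copies diverge, and capitals mark bases that differ from Hist1h4d.
Hist1h4d, chr13:23581602-23581691, plus strand, GRCm38: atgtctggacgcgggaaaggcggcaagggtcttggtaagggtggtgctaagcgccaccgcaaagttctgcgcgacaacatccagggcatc
Hist2h4, chr3:96263215-96263304, minus strand, GRCm38: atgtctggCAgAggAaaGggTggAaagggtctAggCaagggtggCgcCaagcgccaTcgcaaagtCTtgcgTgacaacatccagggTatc
Hist1h4c, chr13:23698360-23698449, minus strand, GRCm38: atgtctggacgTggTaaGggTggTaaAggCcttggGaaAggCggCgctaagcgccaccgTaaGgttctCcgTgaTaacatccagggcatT
Hist1h4i, chr13:22041234-22041323, minus strand, GRCm38: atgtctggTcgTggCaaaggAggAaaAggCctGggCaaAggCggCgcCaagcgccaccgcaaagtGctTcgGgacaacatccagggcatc

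The 12 H3 genes fall into a pair of protein forms that differ by the single substitution S96C, counted from 1 at the residue after the initiator methionine. The serine form is encoded by 8 genes and the cysteine form by 4 (Hist1h3a, Hist1h3g, Hist1h3h and Hist1h3i). The stretch of coding sequence around that codon, in capitals, is shown for the highest gene of each form and for Hist1h3h, a close copy of Hist1h3i.
Hist1h3i, chr13:21783056-21783106, minus strand, GRCm38: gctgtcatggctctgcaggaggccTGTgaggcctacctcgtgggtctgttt
Hist1h3h, chr13:21717923-21717973, plus strand, GRCm38: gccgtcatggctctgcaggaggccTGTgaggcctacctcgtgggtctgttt
Hist2h3b, chr3:96268958-96269008, plus strand, GRCm38: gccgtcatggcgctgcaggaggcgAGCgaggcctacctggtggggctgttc

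The family was expressed broadly, and the deposited estimate placed most of its signal on 1 gene. At a threshold of 1 TPM (a length-scaled relative abundance) in both libraries, 58 of 67 members were detected, against 32.2% of all gene rows. Summed over members, the level was 14386 TPM in replicate 1 and 12879 TPM in replicate 2, or 1.36% ± 0.107 (SD, n = 2) of all TPM. By that estimate Hist1h2ap alone made up 68.5% and 70.8% of these sums, but the division of reads with its near copy Hist1h2ao was not checked. The next member, Hist1h4d, was 11.5-fold lower in mean TPM. Mean levels exceeded 100 TPM in 12 members and lay between 10 and 100 TPM in 36, between 1 and 10 TPM in 13 and under 1 TPM in 6.

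The libraries held 39045711 and 41576378 expected counts over genes, which are the authors' estimated counts and need not be whole. Members took 169999 and 163443 of them, 0.435% and 0.393%. Where 0 counts were listed, up to 3 remain possible, a limit of 0.0768 and 0.0722 CPM that covers counting error only. Member models are short, with a median length of 480 nt and a range from 312 to 2879 nt. The deposited effective lengths, which count the possible read starts, were 99 nt shorter than the model in every member and so came to 68.3% to 96.6% of its length. TPM divides by effective length and therefore raises the shortest genes most. With annotated length in place of effective length the family's share was 1.23%, and as a plain share of counts it was 0.414%.

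**Figure D1:**
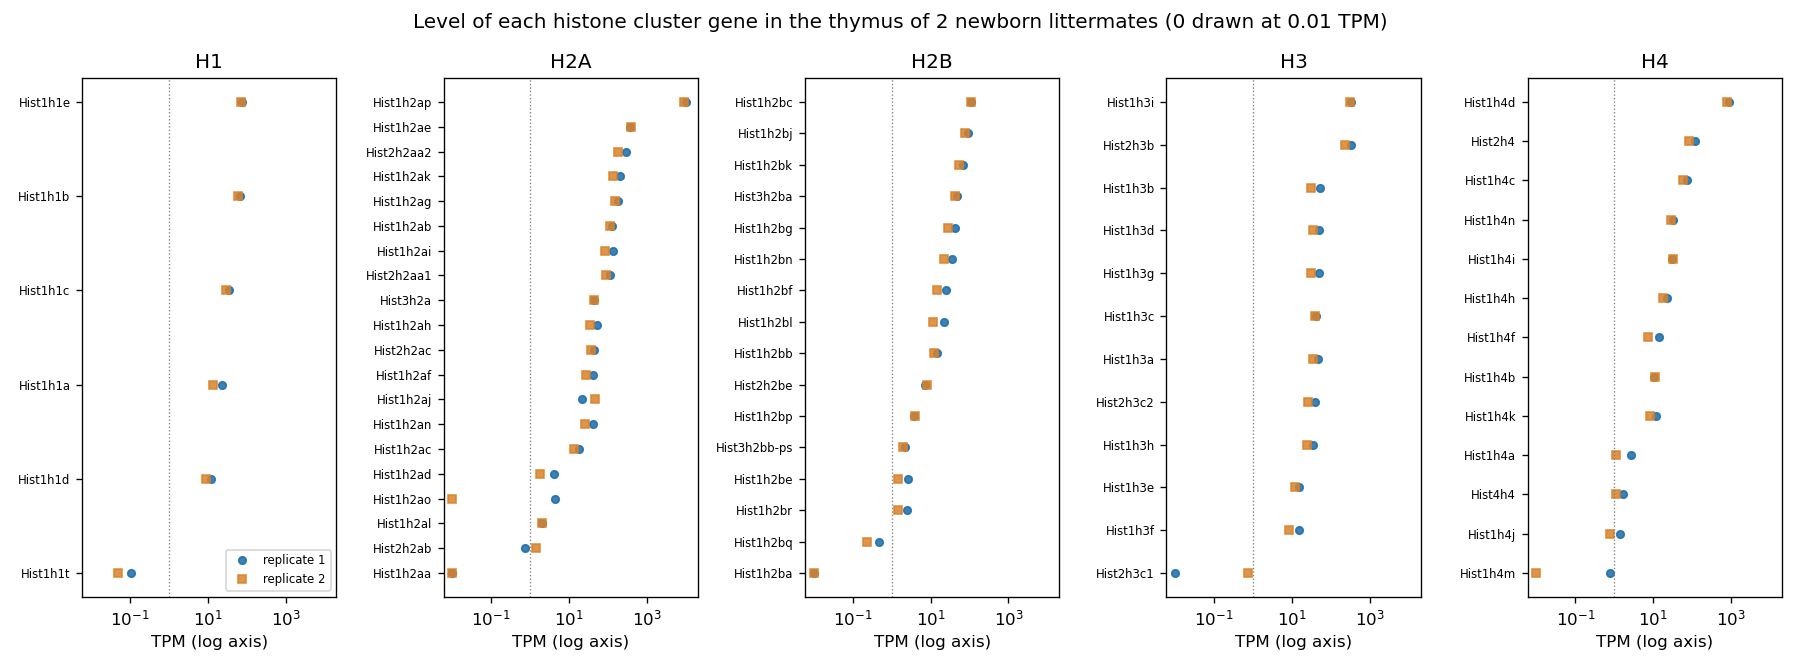
TPM of each of the 67 histone cluster genes (log axis) in replicate 1 (circles) and replicate 2 (squares), in 1 panel per histone type and ordered by mean level, with the detection threshold of 1 TPM dotted. Hist1h2ap at 9861 and 9115 TPM and Hist1h4d at 849 and 797 TPM lead their panels, and the testis-type genes Hist1h1t, Hist1h2aa and Hist1h2ba are at the bottom of theirs.

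H2A, the partner of H2B in the nucleosome, was the most abundant type. Its 20 members summed to 11532 and 10486 TPM, 80.8% ± 0.895 (SD, n = 2) of the family. H4 followed with 1170 and 1044 TPM (8.12% ± 0.0203), H3 with 995 and 783 TPM (6.50% ± 0.591), H2B with 477 and 382 TPM (3.14% ± 0.251) and the linker H1 with 212 and 184 TPM (1.45% ± 0.0324). The order of the 5 types was the same in both pups. Without Hist1h2ap, which was left out after its value had been seen, H2A was still first at 36.7% ± 0.343, ahead of H4 at 26.8% ± 1.33, H3 at 21.4% ± 0.836, H2B at 10.3% ± 0.289 and H1 at 4.79% ± 0.142. Summed H2A without this gene was 1671 and 1372 TPM.

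**Figure D2:**
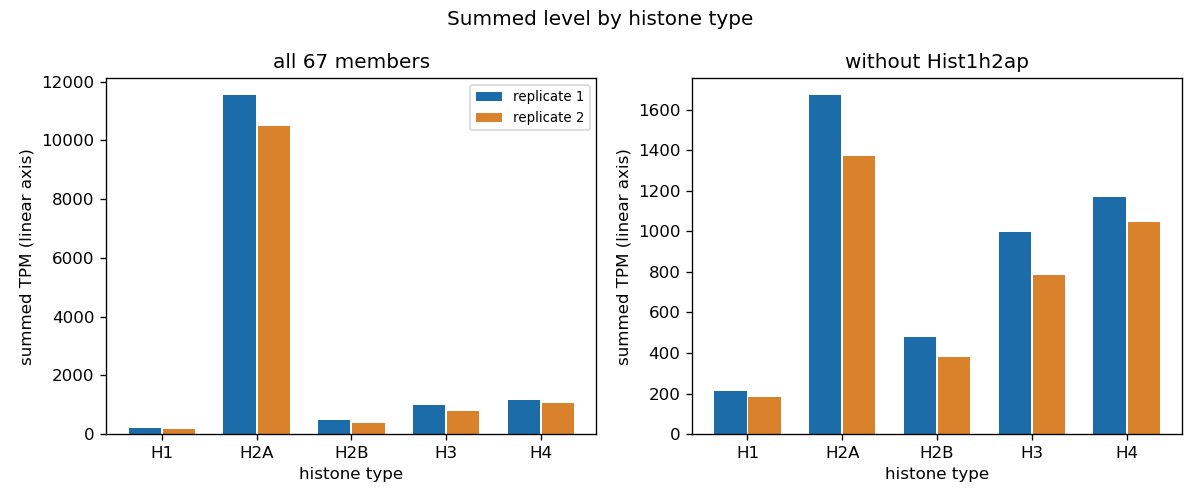
Summed TPM (linear axes from 0) by histone type in replicate 1 and replicate 2, for all 67 members on the left and without Hist1h2ap on the right. H2A stands at 11532 and 10486 TPM with Hist1h2ap and at 1671 and 1372 TPM without it, and H2A, H4, H3, H2B and H1 keep this order in both panels.

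Hist1h2ap (chromosome 13, 21833026 to 21833507, minus strand) stood at 9861 and 9115 TPM, 9488 ± 527 (SD, n = 2), from 111370 and 111074 counts. It held rank 5 of all genes by mean TPM, rank 14 by counts and rank 7 by counts per annotated length. Its model of 482 nt shares an identical run of 452 nt with that of Hist1h2ao, a gene of 480 nt on the same chromosome (21810465 to 21810944, plus strand). The entire coding sequence lies in that run. Only the first 30 nt of Hist1h2ap and the last 28 nt of Hist1h2ao differ, so that 353 of the 383 windows of 100 nt in Hist1h2ap occur in both. The estimate nevertheless placed almost all reads on Hist1h2ap, with 48.7 and 0 counts for Hist1h2ao. Reads were not examined here, so this division between the 2 genes was not checked. The deposited posterior SD, the uncertainty of dividing reads among models, was 141 and 129 counts for Hist1h2ap and 45.7 and 23.9 counts for Hist1h2ao.

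The protein of Hist1h2ap is encoded by 9 H2A genes in all, which together summed to 10725 and 9884 TPM. The other members of this protein group ranged widely. Hist1h2ae was at 359 and 382 TPM, Hist1h2ag at 178 and 152 TPM, Hist1h2ab at 124 and 114 TPM and Hist1h2ai at 137 and 81.1 TPM. Hist1h2an (40.5 and 25.6 TPM), Hist1h2ac (18.4 and 13.2 TPM), Hist1h2ad (4.04 and 1.78 TPM) and Hist1h2ao (4.33 and 0 TPM) were lower in both pups. Their coding sequences differed from that of Hist1h2ap at 8 or fewer of 393 bases, so the division of reads among them is uncertain. The degree differed by gene. The deposited posterior SD was 68.4 and 69.4 counts for Hist1h2ae, on 3825 and 4388 counts. For the low Hist1h2ad it was 21.6 and 15.65 counts, on 43.3 and 20.6.

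H2A genes with other proteins lay below Hist1h2ap and Hist1h2ae, and some lay above the remaining genes of that group. Hist2h2aa2 and Hist2h2aa1 encode 1 protein that carries T16S, S40A, L51M and R99K relative to the large group, and they stood at 288 and 185 TPM and at 109 and 90.3 TPM. They have no coding window of their own, and their sum was 397 and 275 TPM. Hist1h2ak, with the single change S122T and 89.5% of its coding windows in no other gene, was at 206 and 135 TPM. Hist3h2a (T16S) was at 43.4 and 44.5 TPM, Hist1h2ah at 50.5 and 34.8 TPM, Hist2h2ac at 44.5 and 36.1 TPM and Hist1h2af (A126P) at 40.5 and 27.2 TPM. Hist2h2ab, the most divergent somatic H2A of equal length with 9 substitutions, was near the threshold at 0.740 and 1.45 TPM. The pseudogene Hist1h2aj was at 21.4 and 45.8 TPM with a posterior SD of 72.1 and 80.6 counts on 160 and 368 counts, and its deposited intervals overlapped.

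H2B members were lower, and no single gene held most of the sum. Hist1h2bc led with 109 and 107 TPM and was nearly level between the pups, followed by Hist1h2bj at 92.0 and 75.0 TPM and Hist1h2bk at 69.7 and 52.5 TPM. Hist3h2ba, of the small cluster on chromosome 11, was at 47.3 and 42.1 TPM. The most common H2B protein is encoded by Hist1h2bf, Hist1h2bj, Hist1h2bl and Hist1h2bn, which summed to 176 and 123 TPM. The protein that differs from it by S75G, encoded by Hist1h2bc, Hist1h2be and Hist1h2bg, summed to 154 and 136 TPM. The ranges of these 2 sums of TPM overlapped. By counts with no length scaling the S75G form was ahead in both pups, with 2686 and 2607 counts against 1741 and 1332. Hist2h2be, all of whose coding windows are its own, was at 7.08 and 8.28 TPM and was among the few members higher in replicate 2. Lower members included Hist1h2bg (42.0 and 27.5 TPM), Hist1h2bn (35.5 and 21.8 TPM), Hist1h2bf (25.2 and 14.3 TPM) and Hist1h2bl (22.8 and 11.3 TPM), each higher in replicate 1. Hist1h2bb was at 14.6 and 12.2 TPM. Under 5 TPM in both libraries were Hist1h2bp (3.76 and 3.93 TPM), Hist1h2be (2.59 and 1.44 TPM), Hist1h2br (2.49 and 1.49 TPM), Hist1h2bq (0.490 and 0.230 TPM) and the pseudogene Hist3h2bb-ps (2.17 and 1.91 TPM).

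H3 was led by 1 gene of each protein form. Hist1h3i, of the cysteine form, was at 329 and 312 TPM, and Hist2h3b, of the serine form, at 324 and 230 TPM. The other Hist1 H3 genes lay between 8.20 and 53.3 TPM in every library. Summed by form, the serine genes reached 536 and 382 TPM and the cysteine genes 459 and 402 TPM, so by TPM the serine form was ahead in replicate 1 and the cysteine form in replicate 2. The share of the serine form was 53.9% and 48.7% of H3 TPM, a mean of 51.3% ± 3.65 (SD, n = 2). This order depends on the length scaling. The serine share was 55.5% and 50.3% with annotated length and 62.7% and 57.6% by counts, so that the serine form was ahead in both pups on either of those scales. Hist2h3c1 was estimated at 0 and 41.0 counts, and its deposited TPM intervals (up to 1.04 in either library) overlapped, while its near copy Hist2h3c2 was at 39.9 and 25.2 TPM.

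By TPM, H4 was dominated by Hist1h4d (chromosome 13, 23581598 to 23582735, plus strand), at 849 and 797 TPM from 7359 and 7457 counts. It held 72.5% and 76.4% of H4 TPM and was 8.11-fold above the next H4 gene in mean TPM. Unlike Hist1h2ap, it has coding windows that are all its own, and its posterior SD was 1.32 and 1.24 counts. The deposited model was 393 nt long and the M21 model is 1138 nt, with the stem-loop 770 nt before its end. Hist2h4 followed at 119 and 83.6 TPM, from 5388 and 4074 counts on a deposited model of 1630 nt. By counts with no length scaling, Hist1h4d was ahead of it by less, with 7359 and 7457 of 15009 and 13557 H4 counts. Hist1h4c came next at 74.6 and 56.2 TPM. The remaining 10 H4 genes lay at or below 32.8 TPM. Hist1h4m and Hist1h4n have no coding window that occurs in no other gene, and they were at 0.790 and 0 TPM and at 32.8 and 28.6 TPM.

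Of the 6 linker histone genes, 5 were detected. Hist1h1e was at 75.1 and 71.7 TPM, Hist1h1b at 66.4 and 59.4 TPM, Hist1h1c at 34.9 and 29.6 TPM, Hist1h1a at 23.2 and 14.0 TPM and Hist1h1d at 12.3 and 9.18 TPM. Each H1 gene encodes its own protein, and for Hist1h1a and Hist1h1b every coding window was unique and the posterior SD was 0, so their counts do not depend on how reads were divided. The replication-independent linker H1f0 was above each of them at 229 and 225 TPM.

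Members known for expression in male germ cells were not detected. Hist1h1t, a testis linker histone, had 2 and 1 counts, and Hist1h2aa and Hist1h2ba, the testis H2A and H2B, had 0 counts in both libraries. Of 3 germ cell markers, Ddx4 at 0.140 and 0.210 TPM and Sycp3 at 0.130 and 0.0400 TPM were not detected. Prm1 was low but passed the detection threshold, at 1.74 and 1.19 TPM. Markers of the labelled tissue were present. All 7 thymocyte markers were detected, between 84.1 and 1041 TPM in mean, and all 3 markers of cortical epithelium. B-cell markers were under 1 TPM, while 3 macrophage markers summed to 191 and 210 TPM and Hba-a1 of red cell precursors stood at 544 and 505 TPM. In a whole organ, fewer cells of a type and less RNA per cell cannot be told apart.

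By position, the Hist1 genes on chromosome 13 form a pair of blocks and 1 distant pseudogene. The block from 21715763 to 22043676 holds 23 measured members and summed to 11231 and 10221 TPM, or 1370 and 1106 TPM without Hist1h2ap. The block from 23531050 to 23934851 holds 30 members, among them 5 of the 6 H1 genes and Hist1h4d, and summed to 2127 and 1907 TPM. The Hist2 cluster on chromosome 3 has 9 measured members and summed to 933 and 660 TPM. The Hist3 cluster on chromosome 11 (3 members) summed to 92.9 and 88.5 TPM, and the single Hist4 gene on chromosome 6, Hist4h4, was at 1.68 and 1.11 TPM. Hist1 therefore made up 93.5% ± 0.935 (SD, n = 2) of the family's TPM, and 78.7% ± 1.97 without Hist1h2ap. By counts with no length scaling, its share was 89.1%.

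H2A and H2B genes often start back to back. In the M21 annotation 15 pairs of members started on opposite strands within 1000 nt of each other, of which 14 joined an H2A with an H2B gene, and their starts were 173 to 306 nt apart. For 13 of these pairs both genes were measured. The H2A gene had the higher mean TPM in 9, the H2B gene in 3, and 1 pair was at 0 in both libraries. The ratio of mean TPM, H2A over H2B, ran from 0.146 for Hist1h2ac with Hist1h2bc to 4768 for Hist1h2ap with Hist1h2br. The value of 4768 rests on the estimated division of reads between Hist1h2ap and Hist1h2ao. Among the other pairs with a higher H2A gene it ran from 1.97 (Hist1h2ag with Hist1h2bj) to 21.5 (Hist3h2a with Hist3h2bb-ps).

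**Figure D3:**
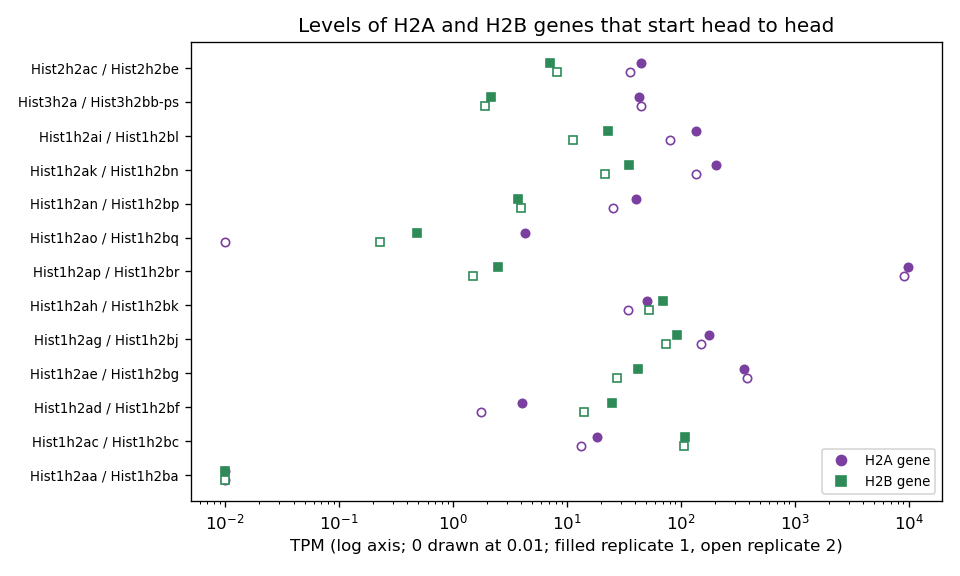
TPM (log axis) of the H2A gene (circles) and the H2B gene (squares) in 13 pairs that start head to head, filled for replicate 1 and open for replicate 2. By mean TPM the H2A gene is higher in 9 pairs, with Hist1h2ap over Hist1h2br the widest gap, and the H2B gene in 3 (those of Hist1h2bk, Hist1h2bf and Hist1h2bc). Hist1h2ao is listed at 0 in replicate 2, below Hist1h2bq at 0.230 TPM.

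Promoter windows (RefSeq, GRCm38.p6) were matched for 62 of the 70 genes, and the 250 bases before each start were searched on both strands. The CCAAT box (CCAAT) was in 82.3% of member windows and in 33.8% of the 32851 windows of the table. It occurred in all 6 H1, all 18 H2A and all 16 H2B windows, in 8 of 10 H3 windows and in 3 of 12 H4 windows. The TATA box (TATAAA) was in 46.8% of member windows against 12.4% overall. The octamer ATTTGCAT, known from histone H2B and immunoglobulin promoters, was in 38.9% of H2A and 43.8% of H2B windows, in no H1, H3 or H4 window and in 1.6% overall. The windows of a head-to-head pair overlap, so H2A and H2B windows are not separate observations. Whether matches of different motifs share bases was not checked. A match is a description of the letters and not a mapped site.

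Bases upstream of both the RefSeq and the M21 start, 118 and 150 of them, are shown for the highest H2A and H4 genes, with matches to these motifs in capitals on either strand (ATTGG is CCAAT read on the other strand). The windows of Hist1h2ap and Hist1h2ao, in full 300 bases each, share an identical run of 200 bases at an offset of 100 bases. At that offset the run is all of the sequence that the 2 windows have in common to compare.
Hist1h2ap, chr13:21833508-21833625, minus strand, GRCm38.p6: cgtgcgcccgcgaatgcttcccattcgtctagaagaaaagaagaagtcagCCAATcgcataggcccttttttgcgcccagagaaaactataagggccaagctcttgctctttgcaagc
Hist1h4d, chr13:23581418-23581567, plus strand, GRCm38.p6: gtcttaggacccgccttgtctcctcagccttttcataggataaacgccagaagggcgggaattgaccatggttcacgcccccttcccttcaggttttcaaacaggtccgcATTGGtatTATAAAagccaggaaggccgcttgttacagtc
Hist1h2ap thus carries a CCAAT box and no TATAAA in this stretch, and Hist1h4d carries both close to its start.

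Replication-independent histones were abundant beside the clustered genes. All 11 genes of the list were detected. H3f3a was at 2325 and 2387 TPM and H3f3b at 2313 and 2267 TPM, and together they exceeded the summed clustered H3 genes 4.66-fold and 5.94-fold. The variant H2afz was at 2345 and 2372 TPM and H2afv at 633 and 586 TPM, together 0.258 and 0.282 times the summed clustered H2A genes. Without Hist1h2ap, left out after its value had been seen, they were 1.78 and 2.16 times that sum, so the direction rests on this gene. The DNA-damage variant H2afx stood at 377 and 392.5 TPM and the centromeric H3 variant Cenpa at 284 and 250.3 TPM. How a library kit treats messages with and without a poly(A) tail bears on such ratios, and the selection step of these libraries was not given in the sources used here.

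Genes that process histone messages and deliver histones to DNA were expressed as well. In the processing list 12 of 13 were detected, with medians of 32.5 and 31.2 TPM. Slbp was the highest at 299 and 319 TPM, and Casp8ap2 and Npat, activators of histone gene transcription, were at 61.9 and 61.7 TPM and at 11.0 and 11.2 TPM. Zfp473, a protein of the histone pre-mRNA cleavage step, was the 1 gene below the threshold, at 1.37 and 0.680 TPM. All 16 chaperone and assembly genes were detected, led by Rbbp4 at 409 and 420 TPM and Rbbp7 at 299 and 312 TPM. The assembly factors Chaf1a and Chaf1b, which deposit new H3 and H4 behind the replication fork, were at 21.1 and 23.0 TPM and at 58.2 and 64.3 TPM. All 16 S-phase genes were detected, with medians of 110 and 121 TPM, and Pcna, the sliding clamp of DNA replication, at 388 and 397 TPM.

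Relative to the other genes, most histone cluster genes were lower in replicate 2 than in replicate 1. With libraries scaled by TMM the members lay below the bulk of genes, while scaling by spike-ins turned their own direction, with 8 of 53 then higher in replicate 1 against 2.47% of all genes. Of the 53 members whose mean expected count reached 50, 45 had a log2 ratio of replicate 2 over replicate 1 below 0, against 48.5% of 14155 genes tested the same way. The median ratio was -0.39 (log2, after TMM scaling) over members and 0.01 over all genes. It was -0.21 over 5 H1, -0.27 over 15 H2A, -0.48 over 12 H2B, -0.45 over 11 H3 and -0.35 over 10 H4 members. Deposited TPM intervals, whose level is not stated and which surround a posterior mean, did not overlap for 28 members higher in replicate 1 and for 0 higher in replicate 2, against 17.1% and 10.3% of all genes tested. With 1 library per pup these are differences between 2 libraries, without a test.

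The sizes were modest. Over 2-fold, 0 members were higher in replicate 1 (1.17% of all genes) and 1 was higher in replicate 2 (0.191% of all genes), the pseudogene Hist1h2aj whose intervals overlapped. Other settings called more or fewer members past the same fold. By the ratio of deposited TPM 2 of 53 passed 2-fold in either direction (1.51% of all genes), with a mean count of at least 10 it was 6 of 63 (4.73%), and with a mean count of at least 500 it was 0 of 28 (0.225%). At 1.5-fold 15 of 53 passed (4.77%). The lowest ratios were those of Hist1h2bl (-0.97), Hist1h4f (-0.93) and Hist1h3f (-0.85). High members differed in this ratio. Hist1h2ap was at -0.08, Hist1h4d at -0.06 and Hist1h3i at -0.04, but Hist2h3b was at -0.46, Hist2h2aa2 at -0.61 and Hist1h2ak at -0.58. Members higher in replicate 2 included Hist2h2be (0.26), Hist1h4i (0.13) and Hist1h2ae (0.12). Among tested members with fully unique coding windows, Hist1h1a was at -0.70, Hist4h4 at -0.57, Hist2h4 at -0.48, Hist1h1b at -0.13 and Hist1h4d at -0.06. Only Hist2h2be, at 0.26, was above 0 among them.

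**Figure D4:**
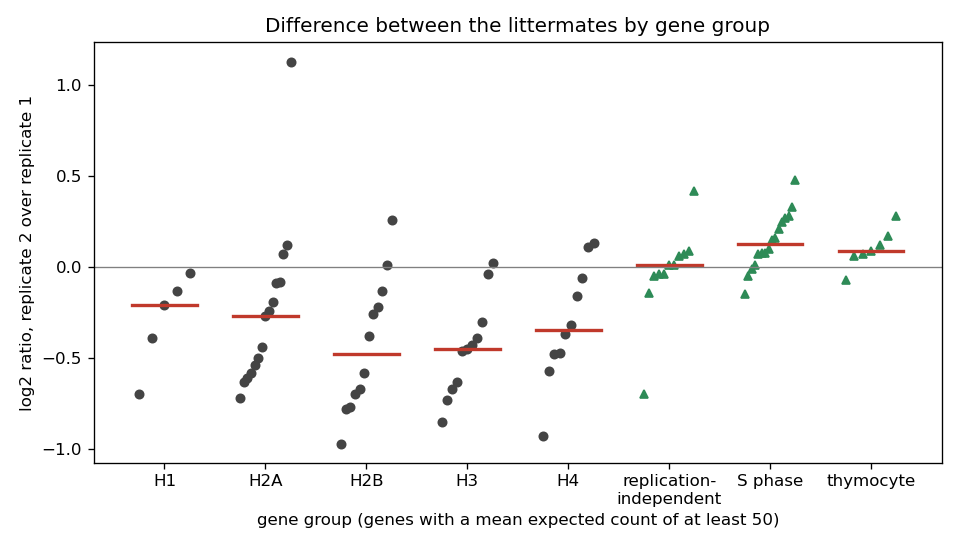
Log2 ratio of replicate 2 over replicate 1 for each gene whose mean expected count reached 50, by histone type (circles) and for 3 comparison lists (triangles), with the median of each group as a bar. The medians of the 5 histone types lie from -0.48 to -0.21, and those of replication-independent histones, S-phase genes and thymocyte markers lie at 0.01, 0.13 and 0.09.

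The comparison lists had medians near or above 0 on the same scale, where 7292 of all 14155 genes tested were higher in replicate 2. Among the 16 S-phase genes 13 were higher in replicate 2 (median 0.13), among the 16 chaperone genes 12 (median 0.12), and among the 13 processing genes 8 (median 0.04, with Slbp at 0.15). Replication-independent histones were split, with 5 higher in replicate 1 and 6 in replicate 2 (median 0.01). Thymocyte markers were higher in replicate 2 in 6 of 7 cases (median 0.09). Of the 3 cortical epithelium genes, Foxn1 and Psmb11 had ratios of 0.60 and 0.55, while Ccl25, the most abundant, was level at -0.01. Of 562 other genes with a model under 600 nt, a limit chosen after values had been seen, 194 were higher in replicate 1, with a median of 0.07. The part of model length, tissue composition and library preparation in these differences was not tested.

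Counts were also summed over genes that encode 1 protein. Of the 22 proteins whose summed mean count reached 50, 14 have a single gene and so repeat its ratio. The 8 proteins with more than 1 gene were all higher in replicate 1 after TMM scaling, with ratios from -0.79 to -0.08. Of all genes tested singly on that scale, 48.5% were higher in replicate 1. The H4 protein, summed over its 13 genes, had a ratio of -0.22. Its 10 genes with a mean count of at least 50 ran singly from -0.93 (Hist1h4f) to 0.13 (Hist1h4i). The serine form of H3 had a ratio of -0.47 and the cysteine form -0.17. The protein of Hist1h2ap had a ratio of -0.08, which that 1 gene sets. Scaling by the ERCC spike-ins, which held 659 and 427 counts, moved the median of all genes to 0.71 and that of the members to 0.32, so that the members stayed 0.39 below all genes while their own direction turned.

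Annotated genes that overlap members limit some of these values. In M21, 26 members overlap another gene, 23 of them on the opposite strand, and whether the counting used strand is not given in the sources used here. Among H2A members 19 overlap a small opposite-strand model annotated as a microRNA, and 0 of these models had a row in the tables. Hist3h2a lies within Trim17, which held 25.3 and 41.5 counts against 2621 and 2898 for Hist3h2a. Hist1h2be overlaps the more abundant Hist1h1e by 496 nt on the same strand. The noncoding gene Gm42743, which overlaps the unmeasured Hist2h2bb on the same strand, was at 59.2 and 39.9 TPM.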

How the data were processed

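Total RNA libraries of 2 newborn thymuses were analysed. The genome build was mm10 (per the labels) and the gene annotation M4 (per the deposited read-me texts). Which aligner and quantifier were used, and whether strand was, was not given in the sources used here. The authors deposited expected counts (estimated, not normalized), TPM scaled to effective length, a posterior SD of each count and an interval of TPM. The authors also deposited the percent of each gene's TPM held by each transcript. Symbols, coordinates and transcripts are from GENCODE M21 (GRCm38), which matched 42462 of 43346 gene rows. Of 72 deposited transcripts of members, 50 had the same version and length in M21. Spike-in rows, a phiX row and rows named by a number were left out of totals. Detection was TPM of at least 1 in both libraries. Log2 ratios used counts scaled by TMM (edgeR 4.0.16, R 4.3.3, on 17258 genes) with a prior count of 0.5 and a mean count of at least 50. DESeq2 1.42.0 size factors were an alternative. Python 3.11.15, pandas 2.3.3 and matplotlib 3.10.9 were used. The ratio step and the window search were tested on simulated data. Errors are SDs over 2 littermates, which mix biological and technical spread. Any member may be named, and other genes come from lists or overlap a member. Members and lists were chosen with earlier results of these data known. The genes whose sequences are shown were chosen after values had been seen.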

Additional observations from a re-analysis of the deposited data

How the results depend on the processing

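Detection moved by less than 1.5 times under other thresholds and was 59 and 60 members in single libraries. The family's percent of all TPM was 1.23 with annotated length, 0.414 as a share of counts and, chosen after seeing the data, 0.415 without Hist1h2ap, and 1.29 to 1.44 in single libraries. The H2A share was 78.3% by counts, 36.7% without Hist1h2ap and 80.2% to 81.4% in single libraries. The Hist1 share was 89.1%, 78.7% and 92.9% to 94.2% in the same order. The median log2 ratio kept its sign under DESeq2, TPM, a prior of 5 and other count minimums. It was 0.32 under spike-in scaling, with 8 of 53 members then higher in replicate 1 (2.47% of all genes). Over the 20 members with at least 50% of their coding windows unique it was -0.28. Of these 20, 17 were higher in replicate 1 after TMM scaling (48.5% of all genes). Over 2-fold were 2 members by TPM (1.51% of all genes), 6 at a minimum count of 10 (4.73%), 0 at 500 (0.225%) and 0 among those 20, and 15 passed 1.5-fold (4.77%). Spike-in scaling rests on 659 and 427 counts. The median absolute ratio was 0.39 over single members and 0.27 over 22 proteins whose summed mean count reached 50. Of these proteins 14 have a single gene. Hist1h2ap ranked first under each length scaling. No paired analysis was possible because there is only 1 group. Shared coding windows limit single members more than sums.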
